A study of Mus musculus with 20 samples.

Results

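Immediate early genes are genes whose transcripts appear within minutes of a stimulus without new protein synthesis. The 10 described here were Fos, Fosb, Jun, Junb, Egr1, Egr2, Ier2, Nr4a1, Nr4a2 and Dusp1. They were chosen by name, as the rows of the deposited table of normalized read counts whose Ensembl identifiers carry these symbols, and all 10 were found among its 26211 genes. All 10 also passed the filter used for testing, a mean normalized read count of at least 10 over the libraries.

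The libraries were made from pancreatic islets, which hold the hormone-secreting cells of the pancreas. The 10 P2Y14-KO libraries came from P2Y14-knockout mice and the 10 WT libraries from wildtype mice. P2Y14 is the product of P2ry14, a G protein-coupled receptor that responds to UDP-sugars, and the study's title concerns insulin release and smooth muscle. Both genotypes carried the strain label C57BL/6 x 129S6. In both, the pancreas was inflated with Liberase, digested warm with shaking, and the islets were washed, hand-picked and cultured overnight in RPMI-1640 with serum before RNA was taken. The labels give no age, sex or allele. Nor do they state whether each library is a separate animal, and p-values therefore measure only the spread between these libraries, which may be technical. Libraries are named below by their columns, KO.1 to KO.10 and WT.11 to WT.20.

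In many cell types, growth factors, depolarization, calcium, cyclic AMP and stress reach these genes through kinases that act on factors already bound at the promoters. The serum response factor binds CArG boxes with its ELK partners, and CREB with its CRTC coactivators binds cyclic AMP response elements. In beta cells, glucose and agents that raise cyclic AMP are known to induce Fos, Egr1 and Nr4a1, and in many tissues enzyme digestion induces the family. Most of the products are transcription factors that pass the signal on to later genes. Dusp1 is a phosphatase that switches the kinases off again.

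The promoter windows of 6 of the genes are shown, chosen after the covariation of the genes across libraries was seen. Each runs from 250 bases before to 50 bases after the transcription start, 5′ to 3′ on the gene's strand, and was taken from RefSeq on GRCm38.p6. Of the 10 genes, 8 were covered by such windows here. Ier2 had no entry among them, and Egr1 was left out of the search. Capitals mark the core of the cyclic AMP response element, TGACG on either strand, the full element TGACGTCA, and the CArG box. Fos with Nr4a1 and Junb with Dusp1 are shown as closely correlated pairs, and Nr4a2 as the gene that followed the others least. Egr2 is shown for its CArG box. The windows of Jun and Fosb were searched but are not shown.

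Fos, chr12:85473640-85473939, plus strand: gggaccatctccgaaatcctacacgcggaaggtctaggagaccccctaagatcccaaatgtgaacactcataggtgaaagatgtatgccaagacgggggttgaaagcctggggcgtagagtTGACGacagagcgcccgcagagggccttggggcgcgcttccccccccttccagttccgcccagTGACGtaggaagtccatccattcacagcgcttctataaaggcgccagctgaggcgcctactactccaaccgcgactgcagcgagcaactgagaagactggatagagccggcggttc
Nr4a1, chr15:101266596-101266895, plus strand: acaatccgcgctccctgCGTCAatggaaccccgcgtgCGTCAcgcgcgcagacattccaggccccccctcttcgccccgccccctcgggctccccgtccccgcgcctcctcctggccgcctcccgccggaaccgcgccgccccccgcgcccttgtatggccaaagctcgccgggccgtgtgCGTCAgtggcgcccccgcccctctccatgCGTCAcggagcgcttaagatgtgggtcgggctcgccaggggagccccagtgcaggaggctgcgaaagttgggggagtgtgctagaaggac
Junb, chr8:84978699-84978998, minus strand: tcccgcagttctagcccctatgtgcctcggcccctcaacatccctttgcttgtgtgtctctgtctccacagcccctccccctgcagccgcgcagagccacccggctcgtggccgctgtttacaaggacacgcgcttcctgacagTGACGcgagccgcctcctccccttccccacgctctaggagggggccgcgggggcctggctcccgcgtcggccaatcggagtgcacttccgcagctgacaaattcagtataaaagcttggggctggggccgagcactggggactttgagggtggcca
Dusp1, chr17:26508423-26508722, minus strand: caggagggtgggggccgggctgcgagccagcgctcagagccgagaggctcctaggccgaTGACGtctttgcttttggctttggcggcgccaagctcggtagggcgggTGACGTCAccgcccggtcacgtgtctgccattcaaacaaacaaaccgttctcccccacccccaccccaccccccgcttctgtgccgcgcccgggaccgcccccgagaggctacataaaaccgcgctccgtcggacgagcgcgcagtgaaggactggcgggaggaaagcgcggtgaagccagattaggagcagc
Nr4a2, chr2:57123954-57124253, minus strand: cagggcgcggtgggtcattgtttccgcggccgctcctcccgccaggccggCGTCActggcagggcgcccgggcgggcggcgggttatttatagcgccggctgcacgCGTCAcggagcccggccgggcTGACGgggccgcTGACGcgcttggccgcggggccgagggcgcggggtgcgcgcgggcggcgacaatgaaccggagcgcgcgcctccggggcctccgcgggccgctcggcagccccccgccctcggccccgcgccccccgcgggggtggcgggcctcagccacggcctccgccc
Egr2, chr10:67537619-67537918, plus strand: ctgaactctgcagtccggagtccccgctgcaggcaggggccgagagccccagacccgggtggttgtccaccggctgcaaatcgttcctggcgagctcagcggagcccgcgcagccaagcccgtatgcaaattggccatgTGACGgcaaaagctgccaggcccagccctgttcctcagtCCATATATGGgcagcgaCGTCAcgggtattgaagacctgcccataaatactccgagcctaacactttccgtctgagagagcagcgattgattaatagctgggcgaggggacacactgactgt

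The TGACG core, counted on both strands and inside the full element too, was present in windows of 7 of the 8 genes, Jun being the exception. Among all 32851 promoter windows of this length it was present in 20.8%. The Nr4a1 and Nr4a2 windows each held 4 copies. The full element was present in the window of 1 gene, Dusp1, against 1.79% of all windows. A CArG box was present in the windows of 1 of the 8 genes, Egr2, against 1.63% of all windows. Egr2 has 5 overlapping or neighbouring windows, of which the one shown held 1 box and 2 cores. A gene was counted if any of its windows held the motif, whereas the percentages are of single windows. The AP-1 motif TGANTCA was found in 0 of the 8 genes and in 7.81% of all windows. The EGR motif GCGNGGGCG was found in 3 genes, Fosb, Nr4a1 and Nr4a2, and in 5.55% of windows. TATAAA was found in 3 genes, Fos, Junb and Nr4a2, and in 13.6% of windows. Counted from the start, it lay at −33 to −28 in Fos and at 1 to 6 in Junb. In Nr4a2 it lay at −164 to −159 on the opposite strand. The NR4A motif AAAGGTCA was found in 0 genes and in 1.51% of windows. These are letter matches within the windows and say nothing of what was bound there. Egr1 and Ier2 were not searched for any of these motifs, so the counts of genes given here, that for the CArG box included, do not cover them.

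Reads summed over genes ranged from 34520628 to 199847246 per library. P2ry14 itself, the knocked-out gene, averaged 51.2 ± 31.4 in P2Y14-KO and 151 ± 67.4 in WT (SD, n = 10 each), with a log2 fold change of −1.97 (SE 0.59) and an adjusted p of 0.244 by limma. Endocrine markers were abundant in every library, and their summed normalized read count was between 16185900 and 40234900 in P2Y14-KO and between 16887400 and 39788900 in WT. The summed acinar markers, which belong to the enzyme-secreting pancreas outside the islets, varied more, between 3760450 and 43696700 in P2Y14-KO and between 3036520 and 32483800 in WT. In bulk islets, fewer cells of a type and less RNA per cell cannot be told apart. KO.8 and WT.20 stood above the other libraries of their genotype for most of the genes described here, and results are therefore also given without each of them.

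The first comparison asked whether these genes differed between P2Y14-KO and WT islets. None of the 10 was past an adjusted p of 0.05 by limma, against 0.28% of the 17482 genes tested (0.16% called higher and 0.12% called lower in P2Y14-KO), and none by edgeR or DESeq2 on the recovered reads. None had an unadjusted p under 0.05 by limma either, a share that was 8.94% among all genes tested. The log2 fold changes, P2Y14-KO over WT, were positive for 6 genes and negative for 4 (5 and 5 with quantile normalization, where Fosb was at −0.022), with a median of 0.035 against −0.002 over all genes tested. The split was 4 and 6 with edgeR and with DESeq2, with medians of −0.11 and −0.11, and 9 and 1 with library weights, with a median of 0.30. Adjusted p by limma lay between 0.771 and 0.993. With the endocrine marker level as a covariate, chosen after seeing the data, the log2 fold changes of all 10 were negative, between −0.79 and −0.0070, and none was past the threshold (adjusted p between 0.518 and 0.997 by limma). The median was −0.13 without KO.8 and 0.27 without WT.20, and again none of the 10 was past the threshold. These values do not show that the genotypes were equal, and the 95% confidence intervals given below are wide.

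The AP-1 subunits come first. Fos, which pairs with Jun proteins to form AP-1, lay between 2087 and 15629.9 with a median of 4793 in P2Y14-KO, and between 2111 and 23689 with a median of 4907 in WT. KO.8 and WT.20 stood highest in their groups and KO.6 and WT.16 lowest, and the groups overlapped over nearly all of their range. Its mean was 6081 ± 3864 in P2Y14-KO and 7201 ± 6448 in WT (SD, n = 10 each), and its log2 fold change was −0.080 (95% confidence interval −0.87 to 0.71, adjusted p = 0.966 by limma). Fosb, a close relative of Fos with the same role, lay between 270.05 and 2479.7 with a median of 617 in P2Y14-KO, and between 157 and 2714 with a median of 697 in WT. KO.8 and WT.20 were again the highest, KO.4 and WT.16 the lowest, and the groups overlapped. The log2 fold change of Fosb was 0.026 (−0.95 to 1.01, adjusted p = 0.993 by limma).

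Jun, the main partner of Fos, lay between 1744 and 7388 with a median of 3493 in P2Y14-KO, and between 1689 and 7780.1 with a median of 3012 in WT. KO.8 and KO.2 were close together at the top of P2Y14-KO, WT.20 stood above the other WT libraries, and the ranges nearly coincided. Its mean was 3951 ± 1901 in P2Y14-KO and 3520.2 ± 1946 in WT (SD, n = 10 each), and its log2 fold change was 0.20 (−0.41 to 0.82, adjusted p = 0.866 by limma). Junb, a Jun relative that can also restrain Jun, lay between 1031 and 4992 with a median of 1928 in P2Y14-KO, and between 638 and 6806 with a median of 1285 in WT. WT.20 was the highest library of either genotype, the groups overlapped, and 7 of 10 P2Y14-KO libraries were above the WT median. The log2 fold change of Junb was 0.27 (−0.50 to 1.05, adjusted p = 0.856 by limma).

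The EGR genes encode zinc finger factors that bind GC-rich promoter sites. Egr1, the best studied of them, lay between 2149 and 12487 with a median of 4832 in P2Y14-KO, and between 1987 and 14600.4 with a median of 5517 in WT. WT.20 and WT.17 were the highest WT libraries, close to KO.8, and the groups overlapped. Its mean was 5691 ± 3084 in P2Y14-KO and 6382 ± 4214 in WT (SD, n = 10 each), with a log2 fold change of −0.066 (−0.78 to 0.65, adjusted p = 0.971 by limma). Egr2 lay between 165 and 823 with a median of 330.1 in P2Y14-KO, and between 109 and 980.4 with a median of 294 in WT. Its highest libraries were a group of KO.8, KO.7 and KO.2 in one genotype and WT.20 and WT.17 in the other, and the groups overlapped. The log2 fold change of Egr2 was 0.28 (−0.55 to 1.11, adjusted p = 0.864 by limma). Ier2, a small nuclear protein of the IER family, lay between 699 and 3044 with a median of 1546 in P2Y14-KO, and between 542 and 2925 with a median of 966 in WT. KO.8 and WT.20 were highest, KO.6 and WT.12 lowest, and the groups overlapped, with 7 of 10 P2Y14-KO libraries above the WT median. The log2 fold change of Ier2 was 0.37 (−0.31 to 1.04, adjusted p = 0.771 by limma).

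Nr4a1 and Nr4a2 encode orphan nuclear receptors, which act without a known hormone. Nr4a1 lay between 147 and 3046 with a median of 891 in P2Y14-KO, and between 209 and 3449 with a median of 968 in WT. KO.6 stood far below the other P2Y14-KO libraries and WT.16 far below the other WT libraries, so that the highest library held 20.8 times the lowest in P2Y14-KO and 16.5 times in WT. The groups overlapped, and its log2 fold change was −0.11 (−1.09 to 0.88, adjusted p = 0.964 by limma). Nr4a2 lay between 80.1 and 485 with a median of 254 in P2Y14-KO, and between 119 and 541 with a median of 292 in WT. KO.9, not KO.6, was its lowest P2Y14-KO library, WT.17, not WT.20, its highest WT library, and the groups overlapped. The log2 fold change of Nr4a2 was −0.27 (−0.95 to 0.42, adjusted p = 0.839 by limma). Dusp1, the phosphatase that inactivates MAP kinases, lay between 928 and 4158 with a median of 2122 in P2Y14-KO, and between 897 and 8044 with a median of 1759.5 in WT. WT.20 alone lay above the P2Y14-KO range, WT.16 and WT.19 lay just below it at 897 and 913, and the groups otherwise overlapped. The log2 fold change of Dusp1 was 0.044 (−0.67 to 0.76, adjusted p = 0.981 by limma).

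**Figure D1:**
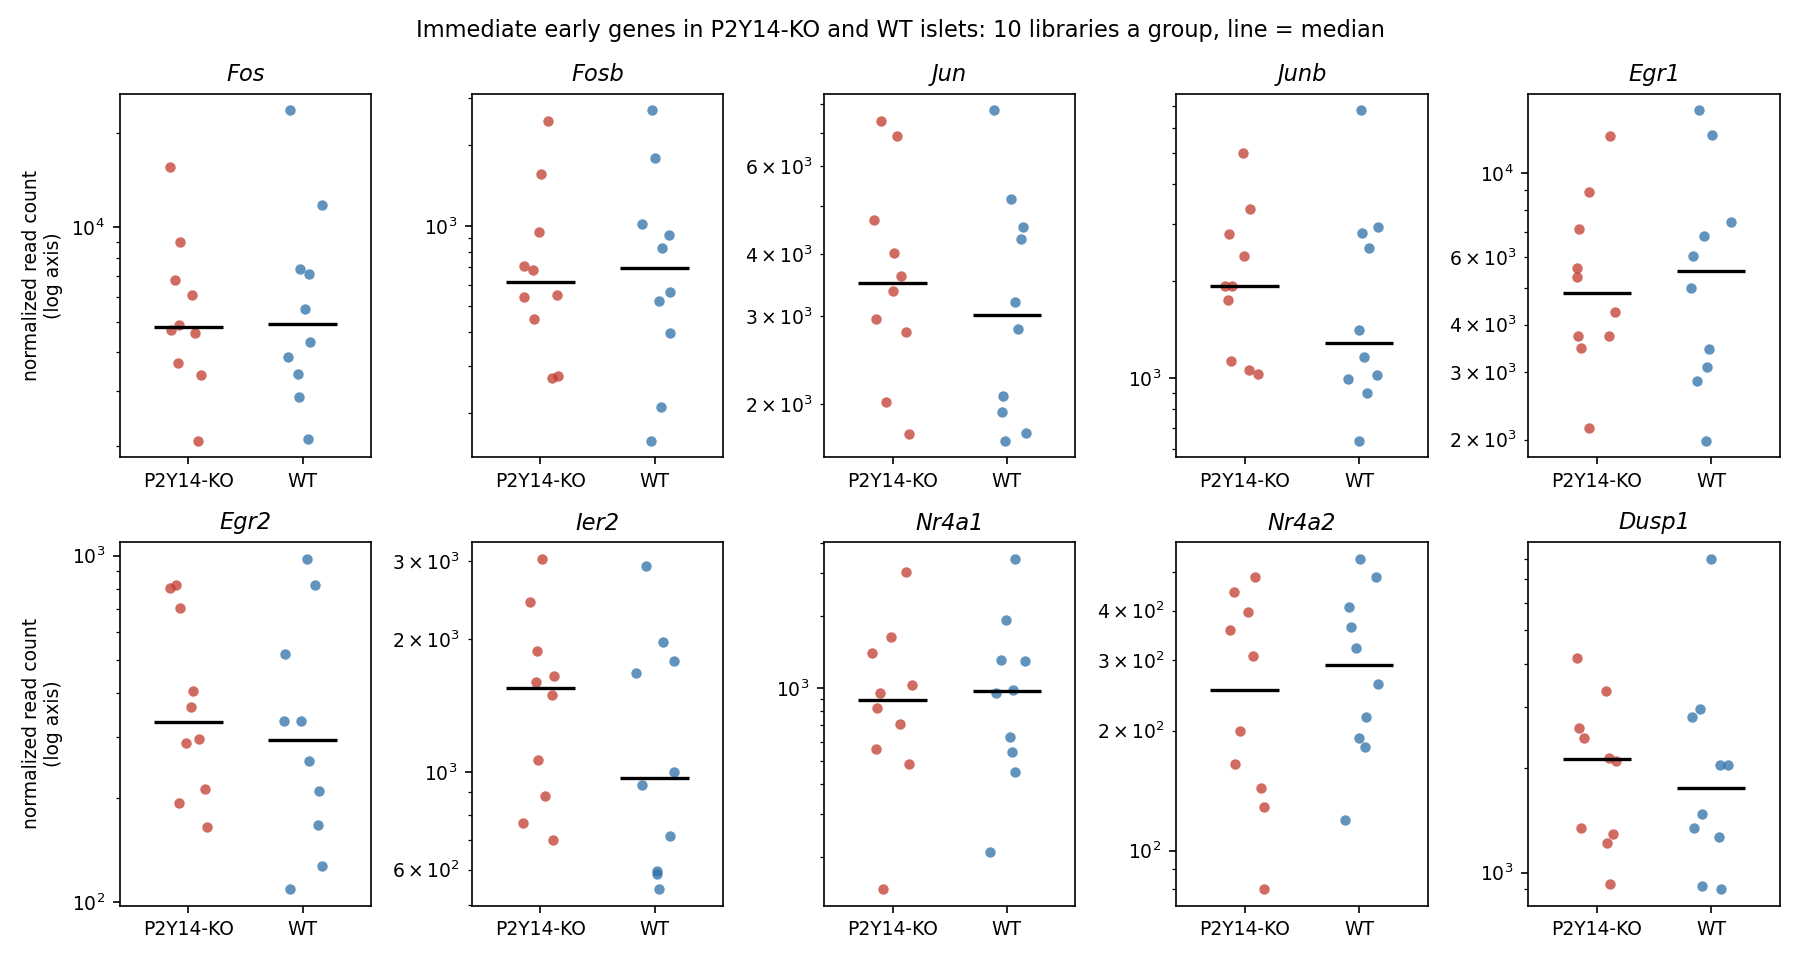
Normalized read count (log axis) of each of the 10 genes in every library, P2Y14-KO left and WT right, 10 libraries a group, with the group median as a line. The groups overlap in every panel, KO.8 is the highest P2Y14-KO library in 10 panels and WT.20 the highest WT library in 9.

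**Figure D2:**
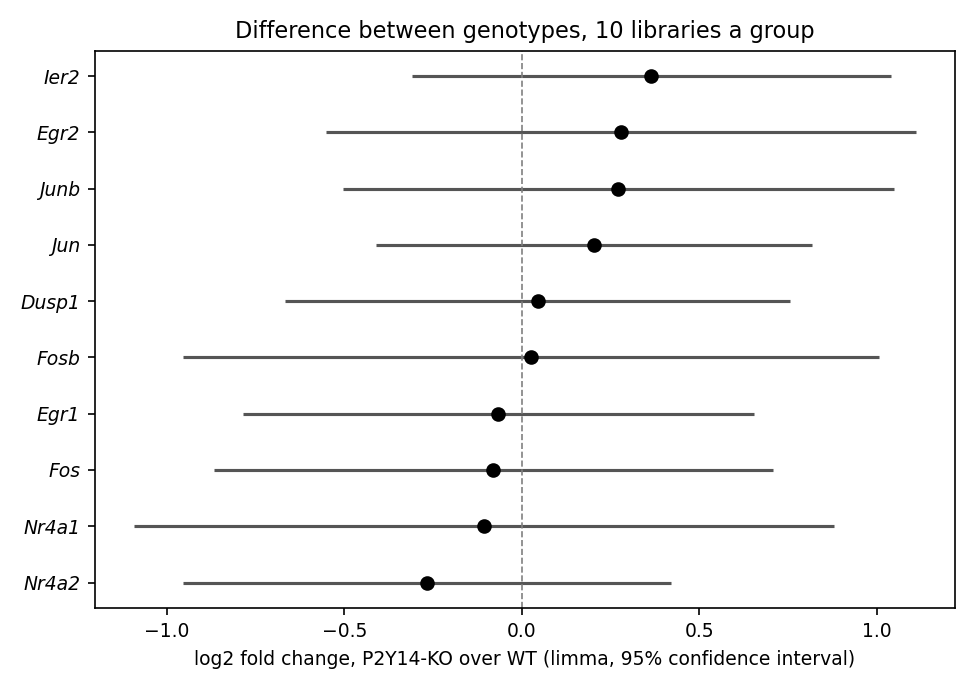
Log2 fold change of P2Y14-KO over WT from limma (x axis) for each gene, with its 95% confidence interval as a line. All 10 intervals span 0, and the estimates run from −0.27 for Nr4a2 to 0.37 for Ier2.

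Compared per kilobase of exon, the most abundant transcript was Fos, at 2824 ± 2213 normalized reads per kb over the 20 libraries (SD). Exon lengths here came from GENCODE M21, which is not necessarily the annotation used for counting. Egr1 followed at 1346 ± 805 per kb and Jun at 1171 ± 591 per kb, and these neighbours in the order did not differ beyond their spread (adjusted p = 0.110, permutation test over the 20 libraries). Junb at 948 ± 666 and Ier2 at 928 ± 503 normalized reads per kb did not differ beyond their spread either (adjusted p = 0.577, permutation test). Dusp1 had 685 ± 490.3 and Nr4a1 had 321 ± 245 normalized reads per kb. The least abundant were Fosb at 141 ± 116, Egr2 at 119 ± 79.9 and Nr4a2 at 71.5 ± 34.5 normalized reads per kb, of which Fosb and Egr2 did not differ beyond their spread (adjusted p = 0.444, permutation test). The test was run on 9 differences of log2 values within libraries, between neighbours in the order of the medians per kb. In that order Ier2 came before Junb, unlike in the order of the means. The other neighbouring steps in the order of the medians passed the test, among them Jun over Ier2 and Junb over Dusp1. For example, Fos lay above Egr1 in 20 of 20 libraries, by 0.99 ± 0.32 on the log2 scale (SD).

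The genes varied widely between libraries of the same genotype. Their standard deviations within genotype were between 0.72 for Jun and 1.158 for Nr4a1 on the log2 scale, whereas the median over all genes tested was 0.44. Counting error was far smaller, since the lowest value of any of the 10 genes in any library was 50 reads, for Nr4a2. Against genes whose mean log2 level lay within 0.5 of their own, the standard deviations stood between the 89.3 percentile for Nr4a2 and the 98.8 percentile for Junb. No difference between P2Y14-KO and WT in this spread was past the threshold in a permutation test of the mean absolute deviation from the group median, run for each gene. The differences, P2Y14-KO minus WT, lay between −0.25 for Junb and 0.18 for Nr4a2 on the log2 scale, with adjusted p between 0.608 and 0.937.

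The same libraries were high or low for most of the genes. KO.8 was the highest P2Y14-KO library for 10 of 10 genes, and on the mean of the 10 genes it lay 1.35 above its genotype's mean on the log2 scale. KO.6 was among the 2 lowest for 10 of 10 genes and lay 1.22 below. In WT, WT.20 was the highest for 9 genes, with a mean 1.70 above that of its genotype, and WT.17 was the highest for Nr4a2 and lay 1.03 above. WT.16 was the lowest for 7 genes and lay 1.31 below. KO.8 had 101415662 reads and KO.6 had 59066106, whereas WT.20 had 53766074, WT.17 had 90110099 and WT.16 had 132647193. The correlation of the genes' log2 level with the log2 read total lay between an r of −0.12 for Dusp1 and 0.14 for Ier2 in P2Y14-KO. In WT it was negative for all 10 genes, between −0.53 for Fos and −0.090 for Nr4a2. These values within a genotype were not tested.

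**Figure D3:**
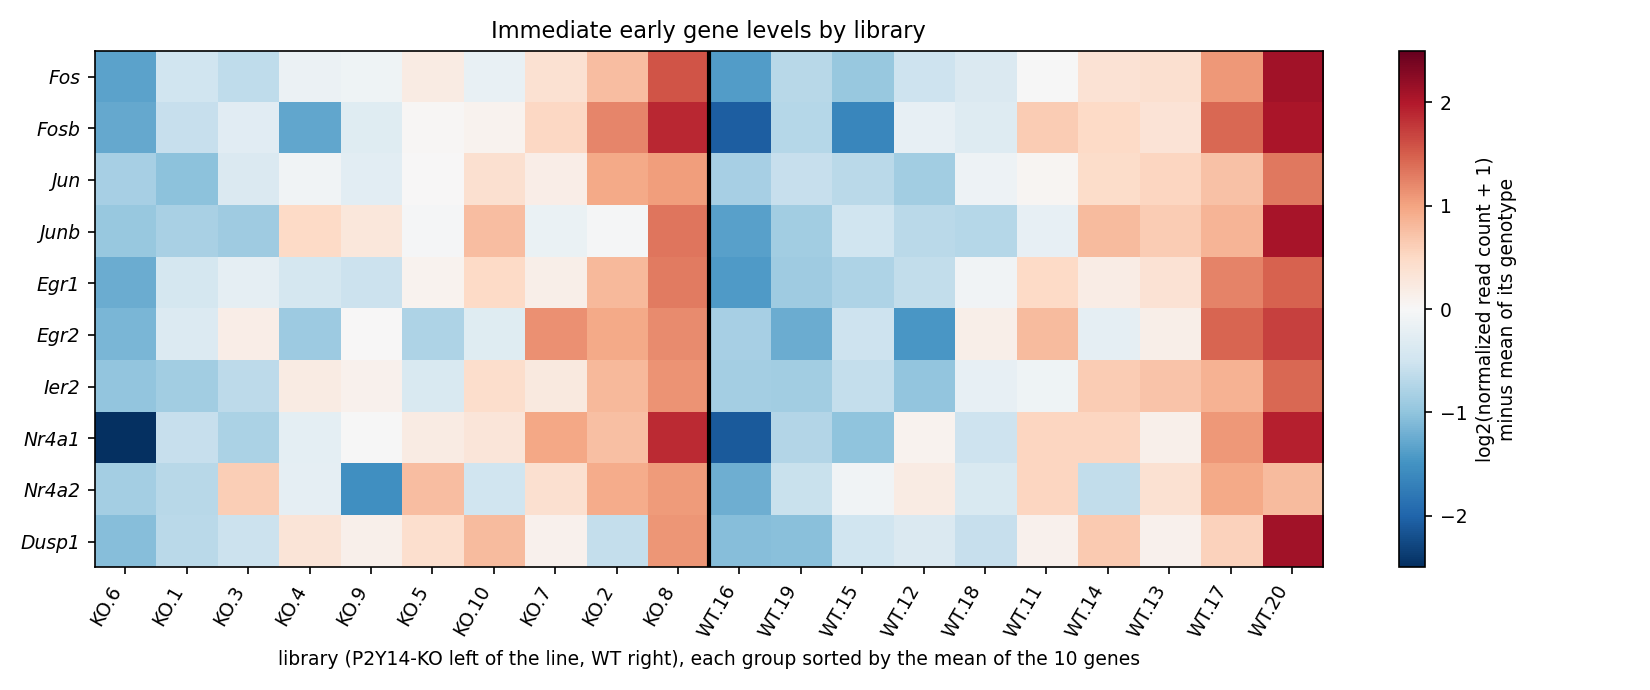
Colour shows log2(normalized read count + 1) of each gene (rows) in each library (columns) minus the mean of its genotype, P2Y14-KO left of the line and WT right, sorted within each genotype by the mean of the 10 genes. The columns of KO.8 and WT.20 are red for all 10 genes, and those of KO.6 and WT.16 are blue for all 10.

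The second comparison asked how far the genes moved together over the 20 libraries once the genotype means were removed. Of the 45 pairs, 44 were positively correlated past an adjusted p of 0.05 by Spearman's rho, with values shuffled within genotype in a permutation test. The share of all gene pairs past this test was not computed. The median rho over the 45 pairs was 0.80, against −0.002 over all pairs among the 13949 genes that averaged 50 normalized reads or more. A rho of at least 0.7 was reached by 35 of the 45 pairs and by 1.17% of all pairs among those genes. The highest was Jun with Ier2, at a rho of 0.95 and a Pearson r of 0.97 (adjusted p = 3e-05 and 2.5e-05, permutation test, whose smallest unadjusted p is 1e-05). Fosb with Nr4a1 had a rho of 0.94 and an r of 0.91, Fos with Nr4a1 a rho of 0.94 and an r of 0.94, and Jun with Egr1 a rho of 0.92 and an r of 0.92. On the median rho with the 9 other genes, Fos was the most typical at 0.90 and Nr4a2 the least at 0.67.

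High correlations crossed the AP-1, EGR and NR4A classes, as for Fos with Nr4a1 at a rho of 0.94 and with its partner Jun at 0.91. With no marker level removed, the clearest departure was between Nr4a2 on one side and Junb with Dusp1 on the other. Junb and Dusp1 were correlated at a rho of 0.92 and an r of 0.95 (adjusted p = 3e-05 and 2.5e-05, permutation test). Nr4a2 had a rho of 0.49 with Junb (r 0.43, adjusted p = 0.035 for rho and 0.056 for r, permutation test). With Dusp1 it had a rho of 0.45 (r 0.45, adjusted p = 0.053 for rho and 0.045 for r, permutation test). Egr2 with Dusp1 was of similar size, at a rho of 0.48 and an r of 0.59 (adjusted p = 0.040 and 0.0094, permutation test). A principal component analysis of the 10 genes put 82.1% of their variance on a first axis, on which all had loadings of the same sign, between 0.24 for Nr4a2 and 0.34 for Fos. The second axis held 8.34% and set Nr4a2, at 0.67, apart from Junb at −0.45 and Dusp1 at −0.41.

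Within P2Y14-KO libraries alone the median r over the 45 pairs was 0.74, and within WT libraries alone it was 0.89, and this difference was not tested. For Junb with Nr4a2 the r was 0.20 in P2Y14-KO and 0.67 in WT, and for Egr2 with Dusp1 it was 0.25 in P2Y14-KO and 0.79 in WT. Leaving out the 2 libraries farthest from the median of the first gene of each pair lowered the median r to 0.72, with a lowest value of 0.25 for Junb with Nr4a2. Without KO.8 or without WT.20, 42 of the 45 pairs were past the adjusted p by Spearman's rho, with a median rho of 0.78 and 0.76. The strongest pairs held without the 2 farthest libraries, at an r of 0.95 for Jun with Ier2 and of 0.92 for Fos with Nr4a1.

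**Figure D4:**
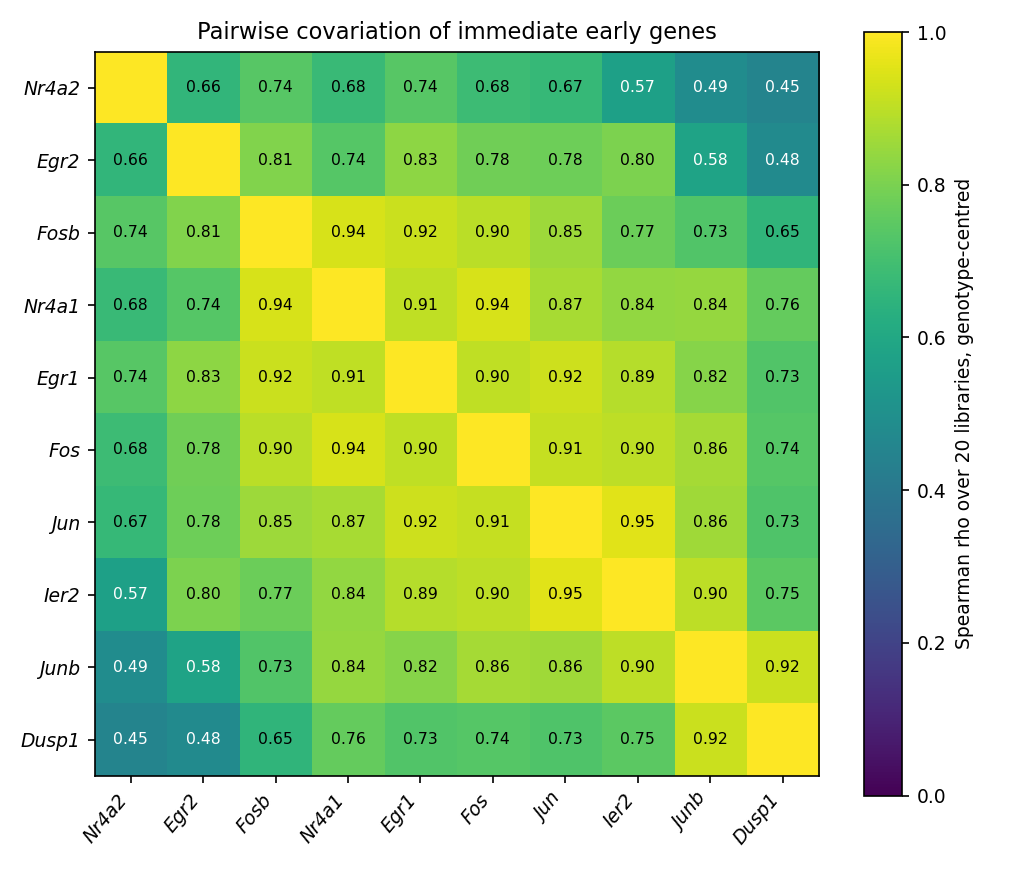
Spearman's rho between each pair of the 10 genes over 20 libraries, on log2 values with the genotype means removed (colour from 0 to 1, values printed). Nr4a2 with Dusp1, at 0.45, is the lowest and Jun with Ier2, at 0.95, the highest.

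The genes outside the 10 whose levels followed each of them most closely are given as a description, with the rho over the 20 libraries. Only genes averaging 50 normalized reads or more were considered. Myc, a transcription factor gene, was the closest for Egr1 at 0.92, for Jun at 0.89 and for Fosb at 0.85. St6galnac2, a sialyltransferase gene, was second for Egr1 at 0.91 and for Jun at 0.88. The third was Sik1, a salt-inducible kinase gene, for Egr1 at 0.88 and Ppp1r15a for Jun at 0.86. Fosb was next followed by Arc at 0.80 and Sik1 at 0.77. Atf3, which encodes a stress-induced partner of Jun proteins, was the closest for Fos at 0.83, followed by Socs3, an inhibitor of cytokine signalling, at 0.82 and the antisense gene Junos at 0.81. Arc, best known as an activity-induced gene of neurons, led for Nr4a1 at 0.87, before Myc at 0.80 and Sik1 at 0.79. Ppp1r15a, which encodes a subunit of the phosphatase that reverses the stress block on translation, led for Ier2 at 0.95, before Junos and Socs3 at 0.86 each.

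Junb and Dusp1 shared their closest gene. Ccn1, which encodes a secreted matrix protein, had a rho of 0.92 with Junb and of 0.92 with Dusp1. Junb was next followed by Zfp36, which promotes decay of short-lived transcripts, at 0.92 and Ppp1r15a at 0.91. Dusp1 was next followed by the transcription factor gene Klf4 at 0.91 and the Wnt receptor gene Fzd1 at 0.89. Nr4a2 had a different set, led by Npas4, a calcium-induced transcription factor gene of neurons and beta cells, at 0.87, then Mal2 at 0.81 and Nfkbiz, an inducible member of the IkB family, at 0.79. For Egr2 the closest was Plk2, a polo-like kinase gene, at 0.80, then Myc at 0.78 and Odc1, which encodes ornithine decarboxylase of polyamine synthesis, at 0.72. The number of genes with a rho of at least 0.7 differed from gene to gene. It was lowest for Egr2, at 13 of 13948 other genes or 0.0932%, among them 6 of the 9 other immediate early genes described here. The share was 0.165% for Fosb, 0.172% for Nr4a2, 0.237% for Fos and 0.251% for Nr4a1. For Egr1, Ier2 and Jun it was 0.48%, 0.516% and 0.531%, and Egr1 alone reached a rho of 0.7 with all 9 others. It was highest for Junb and Dusp1, at 239 and 289 genes or 1.71% and 2.07%, of which 7 and 6 were among the 10. Nr4a2 reached a rho of 0.7 with 2 of the 9.

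A longer list of other immediate early and rapid response genes was examined in the same way. Of 41 listed, 38 passed the filter on low values, with 24 at a positive and 14 at a negative log2 fold change, a median of 0.080, and 0 past an adjusted p of 0.05 by limma. The split was 18 and 20 with edgeR and with DESeq2, at a median of −0.030 with edgeR, 15 and 23 with the macrophage covariate, 5 and 33 with the endocrine covariate and 29 and 9 with library weights. An unadjusted p under 0.05 by limma was reached by 2 of the 38, against 8.94% of all genes tested. Ier5 averaged 423 ± 119 in P2Y14-KO and 311 ± 125 in WT (SD, n = 10 each), with a log2 fold change of 0.49 and an adjusted p of 0.445 by limma. Homer1, a scaffold gene with an activity-induced short form, averaged 505 ± 363 in P2Y14-KO and 720 ± 180 in WT (SD, n = 10 each), with a log2 fold change of −0.95 and an adjusted p of 0.528 by limma. The next smallest p belonged to Fosl2 and Gadd45b, at log2 fold changes of −0.49 and 0.44. The most abundant of this list, Per1 and Crem, had log2 fold changes of 0.091 and −0.19. Over the libraries, 23 of the 36 with a mean of at least 50 had a median rho with the 10 genes of 0.5 or more, against 2.56% of all genes. Arc, Atf3, Sik1 and Myc had median rho values of 0.74, 0.75, 0.77 and 0.80, whereas Crem stood at −0.15 and Homer1 at −0.047, so the list did not move as one.

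The genes of the signal path to these promoters, that is the MAP kinases, their activators, CREB, SRF partners, CRTC coactivators and calcineurin, gave 10 positive and 28 negative log2 fold changes among 38 tested. The split was 4 and 34 with library weights, 11 and 27 with quantile normalization and 13 and 25 with the macrophage covariate. In all genes tested the share with a positive log2 fold change was 49.6%. The median of the listed genes was −0.13, and 0 were past an adjusted p of 0.05 by limma. Of the 38, 6 had an unadjusted p under 0.05 by limma, all with lower values in P2Y14-KO, against 8.94% of all genes tested. Crtc3, a CREB coactivator, averaged 482 ± 117 in P2Y14-KO and 623 ± 80.2 in WT (SD, n = 10 each), with a log2 fold change of −0.40 and an adjusted p of 0.318 by limma. Elk4, a partner of the serum response factor, averaged 332 ± 146 in P2Y14-KO and 494 ± 128 in WT (SD, n = 10 each), with a log2 fold change of −0.67 and an adjusted p of 0.437 by limma. Mapk14, which encodes p38 alpha, and Crtc1 had log2 fold changes of −0.22 and −0.32. The most abundant, Prkacb and Mapk3, had −0.11 and −0.032. Across libraries the median of their median rho with the 10 genes was −0.12, and 0 of 37 reached 0.5, against 2.56% of all genes.

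Genes that restrain the response, namely dual-specificity phosphatases, Sprouty and Spred proteins, NAB corepressors and salt-inducible kinases, gave 6 positive and 13 negative log2 fold changes among 19 tested, or 4 and 15 with TMM factors or quantile normalization, 2 and 17 with the endocrine covariate and 9 and 10 by medians in the rank test. Of these 0 were past an adjusted p of 0.05 by limma and 2 had an unadjusted p under 0.05, against 8.94% of all genes tested. These 2 were Spred2 at −0.44 and Dusp10 at −0.45 on the log2 scale. Dusp8 and Nab2 came next at −0.44 and −0.31, and Sik3, the most abundant, was at −0.19. Across libraries the median of their median rho with the 10 genes was 0.26, and 3 of 18 reached 0.5, against 2.56% of all genes. These were Spry2 at 0.64, Dusp6 at 0.61 and Zfp36l2 at 0.51, whereas Spred2 stood at −0.53, Sik2 at −0.51, Sik3 at −0.39 and Dusp10 at −0.29, so the list did not move as one. Spry2, Dusp6, Zfp36l2 and Sik2 were named after their values were seen.

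Heat shock and metallothionein genes, listed as a gauge of preparation stress, gave 9 positive and 7 negative log2 fold changes among 16 tested. Past an adjusted p of 0.05 by limma were 0 (1 with library weights). An unadjusted p under 0.05 by limma was reached by 1, against 8.94% of all genes tested. The split was 4 and 12 with edgeR, 5 and 11 with DESeq2, 3 and 13 with the endocrine covariate and 13 and 3 with library weights, and the median was 0.025, against −0.19 with edgeR and 0.25 with library weights. The gene at an unadjusted p under 0.05 was Hspa8, a constitutive chaperone, at 5748 ± 1847 in P2Y14-KO and 3776 ± 2918 in WT (SD, n = 10 each), with a log2 fold change of 0.80 and an adjusted p of 0.401 by limma. Hspe1, Hspd1 and Bag3 came next at 0.32, −0.15 and −0.15, and the most abundant, Hsp90ab1 and Mt1, were at −0.070 and 0.00051. The mean log2 level of the list had a rho with the 10 genes of between 0.065 for Nr4a2 and 0.45 for Jun, none past an adjusted p of 0.05.

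Finally, each gene was set against 9 features of the libraries, which are the read total, the mean log2 level of the heat shock list and that of 7 lists of cell type markers, giving 90 relations. By Spearman's rho 7 relations were past an adjusted p of 0.05, by Pearson's r 4, and 22 had an unadjusted p under 0.05 by rho. The share of all genes with such relations to these features was not computed. Whether the genes named below followed them more closely than an ordinary gene was therefore not tested. Dusp1 followed the mesenchymal markers at a rho of 0.72 (r 0.72, adjusted p = 0.028 and 0.037, permutation test), with an r of 0.54 in P2Y14-KO and 0.81 in WT. It followed the endothelial markers at a rho of 0.71 (r 0.64, adjusted p = 0.028 and 0.037, permutation test) and the Schwann cell markers at a rho of 0.71 (r 0.59, adjusted p = 0.028 and 0.101, permutation test). Junb gave 0.69 with mesenchymal, 0.65 with endothelial and 0.65 with Schwann cell markers (rho, adjusted p = 0.039, 0.042 and 0.042, permutation test), at an r of 0.70, 0.63 and 0.54. Jun followed the duct markers at a rho of 0.64 (r 0.60, adjusted p = 0.049 and 0.083, permutation test), at an r of 0.24 in P2Y14-KO and 0.81 in WT. Close to it, but not past the threshold, were Junb and Ier2 with the duct markers at a rho of 0.62 each, Egr1 at 0.62 and Dusp1 at 0.61 (adjusted p = 0.051 for each, permutation test). Without the 2 libraries farthest from the median level of the marker list, the r of the 7 relations past the threshold lay between 0.57 and 0.74. These need not be the libraries where the gene itself was most extreme.

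These marker lists stood at the following levels. The summed normalized read count of the 10 mesenchymal markers was between 6882 and 40313.8 in P2Y14-KO and between 3026 and 49357 in WT, and 10 of 10 had a positive rho with both Junb and Dusp1. That of the 10 endothelial markers was between 26077 and 57510.4 in P2Y14-KO and between 30164 and 51036 in WT, with 8 of 10 positive for Junb and 9 of 10 for Dusp1. That of the 8 duct markers was between 30864 and 114950 in P2Y14-KO and between 20039 and 79887 in WT. That of the 6 Schwann cell markers was between 3069 and 5714 in P2Y14-KO and between 3437 and 5913 in WT, and 3 of them were at 0 in at least 1 library. No marker of these lists was at 0 in all libraries. The part of these cell types in the levels of Junb, Dusp1 and Jun was not tested. With the mesenchymal, duct, endothelial or Schwann cell level removed by regression, the rho of Junb with Dusp1, 0.92, was 0.87, 0.79, 0.88 or 0.90. That of Nr4a2 with Dusp1, 0.45, was 0.51, 0.28, 0.73 or 0.44 in the same order. It was 0.65, 0.38 and 0.22 with the macrophage, acinar and endocrine level removed. With the endothelial level removed, the lowest rho of any pair was 0.58. All these settings except macrophage and acinar were chosen after seeing the data.

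For Nr4a2 neither relation was past the threshold, with a rho of 0.15 with mesenchymal and −0.026 with endothelial markers. Endocrine markers ran the other way for all 10 genes, with rho between −0.57 for Jun and −0.21 for Egr2, none past an adjusted p of 0.05. Macrophage and dendritic cell markers gave a rho between −0.096 and 0.43 and acinar markers between 0.092 and 0.48, none past an adjusted p of 0.05. The read total gave a rho between −0.27 and −0.0060, none past an adjusted p of 0.05. Between genotypes, 0 genes of any of the marker lists were past an adjusted p of 0.05 by limma. An unadjusted p under 0.05 was reached by 5 of 12 endocrine, 3 of 11 macrophage and dendritic cell, 1 of 6 Schwann cell and 0 of 15 acinar, 8 duct, 10 endothelial and 10 mesenchymal markers. Among all genes tested this share was 8.94% by limma. The endocrine markers had 9 negative log2 fold changes of 12, with a median of −0.31 (11 with quantile normalization). The 3 positive ones were Ins1, Ins2 and Iapp, at 0.10, 0.16 and 0.19, named after their values were seen. The summed endocrine markers had a median of 30412900 in P2Y14-KO and 25164300 in WT. The macrophage and dendritic cell markers had 9 positive log2 fold changes of 11, with a median of 0.53. Of 7 lymphocyte markers, only Cd79a passed the filter, so that list was not used as a feature.

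**Figure D5:**
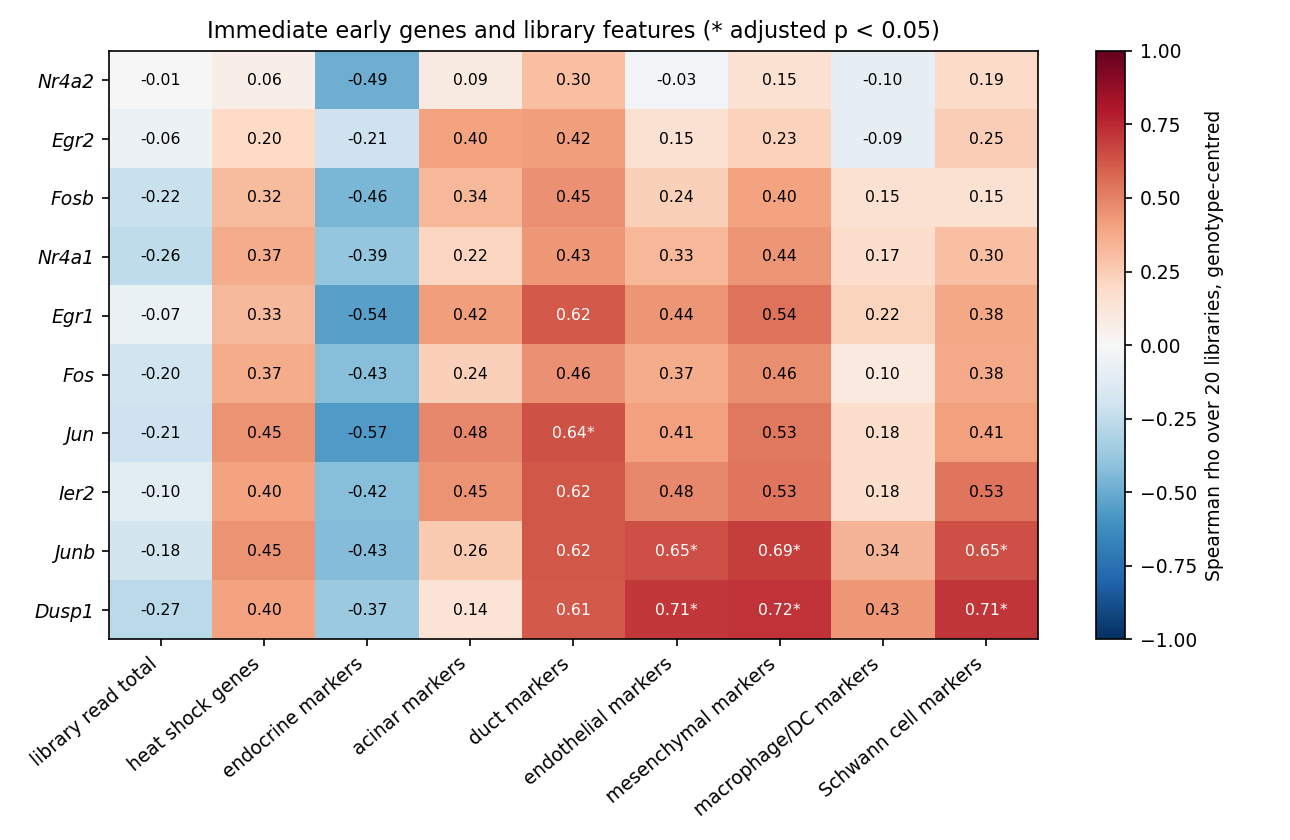
Spearman's rho of each gene (rows) with each library feature (columns) over 20 libraries, on log2 values with the genotype means removed, with a star where the adjusted p is under 0.05. The 7 starred values are in the rows of Jun, Junb and Dusp1.

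Some of the 10 genes overlap neighbouring genes in GENCODE M21, and since the library kit does not mark strand, reads from a shared stretch cannot be told apart. Jun overlaps its antisense gene Junos by 689 bases, and Junos, at a mean of 162 in P2Y14-KO and 129 in WT, had a rho of 0.86 with Jun. Junb overlaps Prdx2, which encodes a peroxiredoxin, by 351 bases, with a rho of 0.37. Dusp1 overlaps Ergic1 by 640 bases, with a rho of −0.45, and the pseudogene Gm8225 by 956 bases, at a mean of 0.154 in P2Y14-KO and 0.777 in WT. It also overlaps AC122252.1, of the sense intronic class, by 1853 bases and the pseudogene AC122252.4 by 227 bases, whose values are not used here.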

How the data were processed

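RNA was sequenced from islets of 10 P2Y14-KO and 10 WT samples with a TruSeq RNA v2 kit, per the labels' protocols. The deposited values are a signal unit, that is, gene-level read counts scaled library by library by the authors, as the table is labelled DESeq-normalized. FastQC, TopHat 1.3.3, Bowtie 0.9.9, Cufflinks 1.3.0, DESeq 1.16.0 and the build mm9 are named per the submitters' processing notes, without roles. The counting tool, its strand setting and its annotation are not stated by any of them.

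Each deposited signal column held whole multiples of a step, and dividing by it gave whole reads for 100% of values within a tolerance of 0.05. The totals, between 34520628 and 199847246 reads, set the counting error, which was below the spread between libraries. Names came from GENCODE M21 (GRCm38, not mm9), which named 23950 identifiers and left 2261 unnamed. WT columns are numbered 11 to 20 and the labels 1 to 10, so they carry no replicate number. The members and gene lists were chosen with earlier results of these data known. Cyr61, Ctgf, Mkl1, Mkl2 and Emr1 were matched under their newer symbols.

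The fit was limma 3.58.1 in R 4.3.3 (eBayes with a mean trend) on log2(value + 1), for genes averaging 10 or more, with genotype as the only term and Benjamini-Hochberg adjustment over 17482 genes. The fold changes are on this scale, which understates those of low genes. It was tested on simulated data. Correlations used log2 values with genotype means removed, in Python 3.11.15 with numpy 2.4.6, pandas 2.3.3 and scipy 1.17.1. Their p-values are two-sided, from 100000 permutations within genotype, adjusted over the 45 pairs of genes or over the 90 relations with library features. The differences of spread were tested with 100000 permutations too, and adjusted over the 10 genes. Plots were drawn with matplotlib 3.10.9. Named genes were P2ry14, the 10 genes, for each the 3 with the highest rho, and from each list those past the threshold, up to 4 with the smallest p and the 2 with the highest mean. Values of markers are given by list, except for Ins1, Ins2 and Iapp. Alternatives were pseudocounts of 0.5 and 10, other filters, library weights, robust eBayes, quantile normalization, TMM factors, a rank test (exact where there were no ties), marker levels as covariates, edgeR 4.0.16 and DESeq2 1.42.0 on recovered reads, and leaving out each library. Mesenchymal, endocrine and duct marker levels, as covariates or removed by regression, and endothelial and Schwann cell levels removed by regression, were added after seeing the data. Genes named outside the rule are marked as such.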

Additional observations from a re-analysis of the deposited data

Results flagged for a closer look

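Of the 20 groups of values, 1 for each gene and genotype, 6 had a highest library set apart from the other 9 by more than 0.466 of the group's range. Chance flags about 1 in 20 groups of normally distributed values, but these read counts are skewed to the right and the 10 genes are not independent of each other. On log2(value + 1), a scale added after seeing the data, 0 of the 20 groups had such a library, the nearest being WT.20 for Dusp1 at 0.456 of the range. In P2Y14-KO, KO.8 was at a normalized read count of 15629.9 for Fos, with the next library at 8952, and at 3046.43 for Nr4a1, with the next at 1636. In WT, WT.20 was at 23688.7 for Fos (next 11788), 6805.55 for Junb (next 2956), 3449.29 for Nr4a1 (next 1913) and 8044.39 for Dusp1 (next 2961). Both libraries stood high for all 10 genes, and without WT.20 the median log2 fold change of the genes was 0.27, against −0.13 without KO.8 and 0.04 with all libraries. None of the 10 genes was past the adjusted p without either library by limma.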

How the results depend on the processing

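Under every alternative run, none of the 10 genes was past an adjusted p of 0.05, the lowest being 0.340 for Ier2 with library weights. The signs were less stable. With the endocrine marker level as a covariate, all 10 log2 fold changes were negative, and those that turned were Fosb at −0.72, Dusp1 at −0.37, Jun at −0.33, Junb at −0.26, Ier2 at −0.11 and Egr2 at −0.0070. Library weights turned Fos to 0.26, Egr1 to 0.16 and Nr4a1 to 0.20. Fosb was −0.022 with quantile normalization, −0.026, −0.046, −0.037, −0.052 and −0.16 with acinar, macrophage, heat shock, mesenchymal and duct covariates, −0.10 with edgeR, −0.11 with DESeq2 and −0.16 by medians in the rank test. Dusp1 was −0.24, −0.0027, −0.062 and −0.15 with macrophage, heat shock, mesenchymal and duct covariates and −0.14 with edgeR and with DESeq2, and Junb was −0.013 with the macrophage covariate. The cause was not tested.

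Leaving out 1 library at a time gave log2 fold changes of −0.077 to 0.28 for Dusp1, −0.22 to 0.10 for Egr1, 0.12 to 0.47 for Egr2, −0.25 to 0.15 for Fos, −0.20 to 0.25 for Fosb, 0.24 to 0.52 for Ier2, 0.09 to 0.35 for Jun, 0.12 to 0.50 for Junb, −0.34 to 0.17 for Nr4a1 and −0.40 to −0.10 for Nr4a2. Their median lay between −0.14 and 0.27.

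The count over all genes, 49, was 29 with a mean of at least 100, 163 with library weights, 82 with the acinar and 15 with the endocrine covariate, 43 with edgeR, 137 with DESeq2, 8 by the rank test and 27 to 74 without 1 library, the lowest without KO.4 and the highest without KO.6. Of the 45 pairs, between 42 and 45 passed without 1 library, 37 with the endocrine, 38 with the duct, 45 with the endothelial and 42 with the Schwann cell marker level removed by regression, and no pair reversed. Of the 90 relations with features, 7 passed by Spearman's rho and 4 by Pearson's r. No paired analysis was possible because the WT columns do not carry the labels' replicate numbers. The lowest value of the 10 genes was 50 reads, which bears on counting error only.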

Other observations

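Of the listed immediate early genes, 3 did not pass the filter on low values and were not tested. Egr3, a relative of Egr1, averaged 5.26 ± 5.597 in P2Y14-KO and 14.7 ± 24.5 in WT (SD, n = 10 each). Egr4 averaged 3.84 ± 7.60 in P2Y14-KO and 5.20 ± 9.48 in WT (SD, n = 10 each). Ptgs2, the inducible cyclooxygenase gene, averaged 4.57 ± 4.58 in P2Y14-KO and 13.8 ± 24.8 in WT (SD, n = 10 each). The standard deviations were near or above the means in all 3 genes and both genotypes.

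Of the other AP-1 subunits, Jund, named after its values were seen, averaged 4616 ± 1037 in P2Y14-KO and 5191 ± 1614 in WT (SD, n = 10 each, adjusted p = 0.816 by limma). Fosl2 averaged 131 ± 56.6 in P2Y14-KO and 200.9 ± 127 in WT (SD, n = 10 each, adjusted p = 0.650 by limma). The median rho with the 10 genes was 0.66 for both.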
